A study of Mus musculus with 36 samples.

Results

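The 10 genes described here encode the enzymes that remove superoxide and peroxides: the superoxide dismutases Sod1, Sod2 and Sod3, catalase (Cat), the glutathione peroxidases Gpx1, Gpx4 and Gpx8, and the peroxiredoxins Prdx1, Prdx3 and Prdx6. They were chosen by name, as the enzymes whose reactions cerium oxide nanoparticles (nanoceria) mimic, and not by a threshold on measured values. They are 10 of the 49315 genes counted, and all 10 were among the 11558 genes that passed the filter on low counts. Polyadenylated RNA was sequenced from C2C12 myoblasts, an established mouse line of muscle precursor cells that was proliferating at collection. The cells grew on coverslips in sealed automated units, and each unit gave 1 library. The 6 groups of 3 libraries crossed 3 regimes with 2 treatments. The regimes were space without gravity (aboard the orbiting station), space with gravity (on the same flight) and land. The treatment was medium without nanoceria or medium holding 100 µg/ml of serum-coated nanoceria. All groups shared the cell line, the flight hardware and the RNA fixative. The land cultures were run in that hardware after the flight temperature record was known, so the regime and the run cannot be told apart in any comparison of space with land. The labels call the 3 units of a group separate samples of 1 cell line, so p-values measure the spread between units and not between animals.

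Superoxide forms when an electron leaks from the respiratory chain or from oxidases onto oxygen. The dismutases turn it into hydrogen peroxide: Sod1 in the cytosol with copper and zinc, Sod2 in the mitochondrial matrix with manganese, and Sod3 outside the cell, bound to the matrix. Catalase breaks down hydrogen peroxide in peroxisomes. Glutathione peroxidases reduce peroxides with glutathione, and peroxiredoxins reduce them through a reactive cysteine, mostly with electrons from thioredoxin. In muscle these enzymes are known for keeping the oxidants of contraction and mitochondrial respiration in check.

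Of the 3 glutathione peroxidases, Gpx8 differs from Gpx1 and Gpx4 at the catalytic codon. Their coding sequences are shown because Gpx1 and Gpx8 had values of opposite sign when space with gravity was compared with land. Gpx4, with the same codon as Gpx1, had a negative value like Gpx8 (log2 fold change -0.51). Whether the codon bears on these values was not tested. Gpx1, the abundant cytosolic and mitochondrial enzyme, and Gpx4, which reduces lipid peroxides within membranes, carry selenocysteine at a TGA codon that would otherwise end translation. Gpx8, an endoplasmic reticulum enzyme that consumes peroxide made during protein folding, has a cysteine codon at the aligned place. The windows of 57 bases were read 5′ to 3′ along the coding strand of GRCm38.p6 from the RefSeq coding sequence, each within 1 coding exon, and the capitals mark the catalytic codon.
Gpx1: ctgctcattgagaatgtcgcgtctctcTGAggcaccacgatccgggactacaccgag
Gpx4: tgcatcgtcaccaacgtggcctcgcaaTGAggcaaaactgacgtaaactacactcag
Gpx8: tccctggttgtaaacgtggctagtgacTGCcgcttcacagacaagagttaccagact
The Gpx1 window is chr9:108339424-108339480 on the plus strand with the TGA as codon 47, the Gpx4 window chr10:80054710-80054766 on the plus strand with the TGA as codon 73, and the Gpx8 window chr13:113045634-113045690 on the minus strand with the TGC as codon 79. Compared base by base, Gpx1 and Gpx4 shared 31 of the 57 bases (54.4%), Gpx4 and Gpx8 shared 27 (47.4%), and Gpx1 and Gpx8 shared 25 (43.9%).

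Of the 10 genes, 8 had promoter windows in the RefSeq table of GRCm38.p6 used here, with 11 windows in all, each running from 250 bases before to 50 bases after an annotated start. Sod3 and Prdx6 had no entry. The core of the antioxidant response element, the site of the stress factor NRF2, was searched on both strands as TGACNNNGC. Sod1 and Prdx1 held it (2 of the 11 windows), and so did 12.4% of all 32851 windows of this length. Their matches are shown because these were the dismutase and the peroxiredoxin with the highest levels per length, with the match in capitals as it reads on the gene's strand, where it is the reverse complement of the core.
Sod1: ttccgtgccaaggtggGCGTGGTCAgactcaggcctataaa
Prdx1: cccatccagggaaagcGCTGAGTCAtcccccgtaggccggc
The Sod1 stretch is chr16:90220690-90220730 and the Prdx1 stretch chr4:116685450-116685490, both on the plus strand, with the matches at -56 to -48 and -133 to -125 from the annotated start. A GC box (GGGCGG, both strands) was in 9 of the 11 windows, all but that of Gpx8 and 1 of the 4 of Gpx4. All windows held it in 35.7% of cases. Of the Gpx4 windows 2 overlap and hold the same GC boxes, and by gene the count was 7 of 8. A TATA box (TATAAA, both strands) was in 3 of the 11 windows, those of Sod1, Prdx1 and Prdx3, against 13.6% of all windows. These matches describe the letters only.

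Total counts ran from 2986628 to 11378178 in 17 libraries, of which 2546 to 15934 fell on the 10 genes. The remaining library, replicate 3 of space with gravity and nanoceria, held 23858 counts and 14 counts of the 10 genes, so its levels are left out of the ranges and means below while it stays in the tests. In every library 6 genes, Lars2 and 5 gene models, took a large share of the counts: 40.7% to 70.3% of counts in space without gravity, 24.5% to 54.4% in space with gravity (5 libraries) and 49.6% to 76.3% on land. Outside these dominant genes, the 10 enzymes took 0.0771% of counts in the smallest library and 0.119% to 0.433% in the other 17. CPM values are counts relative to the TMM-scaled library size, described in the next paragraph. The 8 myoblast markers summed to 93.5 to 230 CPM in space without gravity, 135 to 268 CPM in space with gravity and 148 to 576 CPM on land. Of the myoblast markers, Myf5, Des, Itga7, Chrna1 and Vcam1 had counts in all 17 libraries, while Myod1 had counts in 9. Markers of epithelial, erythroid, adipocyte and endothelial cells summed to at most 3.67 CPM in any library, and of the 4 leukocyte markers Itgam had 0 counts, Ptprc 6 counts, Lyz2 80 counts over 15 libraries (up to 3.25 CPM) and Cd68, a lysosomal protein that other cells also make, up to 41.8 CPM. In bulk RNA, fewer cells of a type and less RNA per cell cannot be told apart.

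Levels are CPM with TMM scaling (library sizes adjusted so that most genes match between libraries), and genes are compared with each other only per kb of exon. Sod1 had the highest level per kb of the 10 genes in 17 of 17 libraries, with a median of 798 CPM per kb (range 246 to 1653). Prdx1, the main cytosolic peroxiredoxin, followed at a median of 55.2 CPM per kb, and ranked next after Sod1 in 10 libraries. Gpx4 (31.6), Gpx1 (27.1), Prdx6 (19.8) and Cat (16.05) had intermediate medians in CPM per kb. Gpx8 (10.7), Sod2 (8.92), Prdx3 (7.32) and Sod3 (2.29) had the lowest medians in CPM per kb. The order between neighbours was not fixed. Gpx1 ranked second in 6 libraries and as low as seventh in another, and Sod3 ranked from second to last. In the scaled CPM of single genes, Sod3 spanned the widest range over the 17 libraries, with a highest level 116 times its lowest. Gpx1 followed at 8.02 times, and Gpx4 had the narrowest span at 2.69 times.

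**Figure D1:**
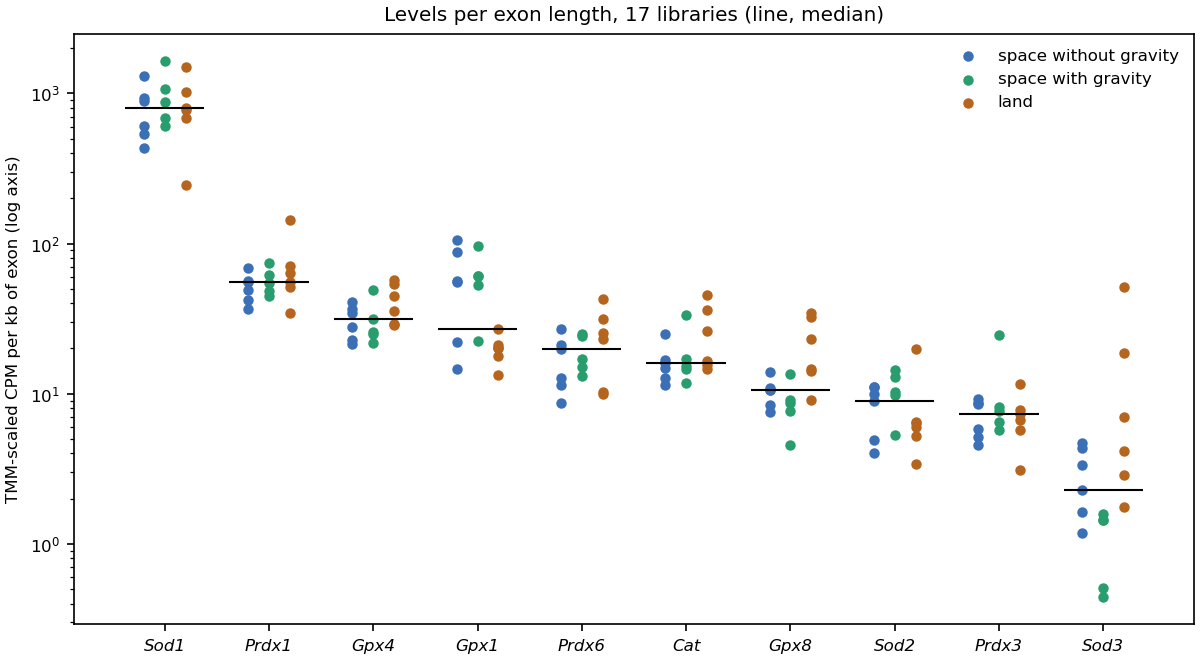
Level of each gene in TMM-scaled CPM per kb of exon (log axis), with 1 point per library (17 libraries, coloured by regime) and a line at the median. Sod1 lay above the other 9 genes in all 17 libraries, and Sod3 spread furthest, from 0.441 to 51.3 CPM per kb.

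In the edgeR fit of all 18 libraries, only space with gravity against land gave calls among the 10 genes. The comparison takes the mean over both nanoceria levels and sets flown cells that had gravity against cells on land. Sod3 and Gpx8 were lower in space with gravity than on land by the adjusted test, and none of the 10 genes was higher by it. Gpx1 had the only large positive value and narrowly missed the threshold. By edgeR's quasi-likelihood test, 2 of the 10 genes passed an adjusted p of 0.05, against 14% of all genes tested (834 higher and 779 lower, so 6.74% lower). With DESeq2's size factors in place of TMM, that split was 628 higher and 1558 lower. With only 10 genes, 2 calls are not read as more than the share of all genes. The median log2 fold change of the 10 genes was -0.50, against -0.04 over all genes tested, and 6 of the 10 values were negative. With the dominant genes' share of each library as a covariate, the median of the 10 was 0.25, against -0.02 over all genes, and 4 of the 10 values were negative. In the fit with this covariate nearly all calls over all genes were lost, for space with gravity and for space without gravity against land. The calls of Sod3 and Gpx8 were among those lost.

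Sod3 (ENSMUSG00000072941, chr5:52363791-52371418, plus strand), the extracellular dismutase, was at 5.42, 5.42 and 1.65 CPM in the untreated libraries of space with gravity, and at 1.90 and 5.90 CPM in the 2 deeper libraries with nanoceria. On land it was at 26.3, 15.6 and 69.3 CPM without nanoceria and at 10.7, 6.61 and 192 CPM with it. Every land library lay above every one of the 5 space libraries, and Sod3 was the only one of the 10 genes whose groups did not overlap in this comparison, which was so for 7.82% of all genes tested. The smallest library held 1 Sod3 count. The fitted log2 fold change was -3.57 ± 0.72 (SE; 95% confidence interval -5.08 to -2.05; edgeR adjusted p = 0.0117).
One land library carried much of the size of that difference. Replicate 3 of land with nanoceria held 589 Sod3 counts, and without it the log2 fold change was -2.05 with an adjusted p of 0.035. Sod3 passed the threshold in 17 of the 18 fits with 1 library omitted. The exception lacked replicate 1 of space with gravity and nanoceria and gave an adjusted p of 0.0556. With the dominant genes' share of each library as a covariate, the log2 fold change was -4.17 with an adjusted p of 0.173. Markers of differentiating myotubes summed to 0.659 to 10.7 CPM in space with gravity and 3.32 to 87.5 CPM on land. The highest sum was in replicate 1 of land without nanoceria, where Sod3 was at 26.3 CPM, and it was 7.16 CPM in the land library with the most Sod3. That library also had the highest sum of myoblast markers of the 17, 576 CPM, against 148 to 331 CPM in the other land libraries. Of the 6 myotube markers, 5 had counts in space with gravity and 6 on land, and the part of either marker list in the result was not tested.

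Gpx8 (ENSMUSG00000021760, chr13:113042763-113046388, minus strand) was at 9.22, 4.64 and 13.7 CPM in the untreated libraries of space with gravity, and at 7.84 and 8.77 CPM in the 2 deeper treated ones. On land it was at 14.9, 23.5 and 32.9 CPM without nanoceria and at 9.26, 14.4 and 35.2 CPM with it. The groups overlapped through 2 libraries, 13.7 CPM in space and 9.26 CPM on land. The log2 fold change was -1.37 ± 0.42 (SE; 95% confidence interval -2.26 to -0.485; edgeR adjusted p = 0.0406). Its counts were low, 23 to 143 a library, and the call held in 4 of the 18 fits that left out 1 library, with adjusted p from 0.0355 to 0.125 and log2 fold changes from -1.53 to -0.99. It was also lost with no filter on low counts (adjusted p = 0.116), with the 2 regimes fitted alone (0.0851) and with the dominant genes' share as a covariate (0.349). Gpx8 overlaps Cdc20b on the opposite strand, which had 0 counts in every library.

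Gpx1 (ENSMUSG00000063856, chr9:108338903-108340343, plus strand) was at 87.4, 32.2 and 86.9 CPM in the untreated libraries of space with gravity, and at 76.3 and 138 CPM in the 2 deeper treated ones. On land it was at 28.9, 39.1 and 19.1 CPM without nanoceria and at 30.4, 28.8 and 25.7 CPM with it. Of the 5 space libraries, 4 lay above every land library, and the other lay within the land range. The log2 fold change was 1.39 ± 0.46 (SE; 95% confidence interval 0.412 to 2.36), with an edgeR adjusted p of 0.0546 that missed the threshold. Without the smallest library, which held 1 Gpx1 count, the value was 1.52 with an adjusted p of 0.0276, and with no filter on low counts it was 1.48 with an adjusted p of 0.0493. DESeq2's size factors gave 1.04 with an adjusted p of 0.117.

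**Figure D2:**
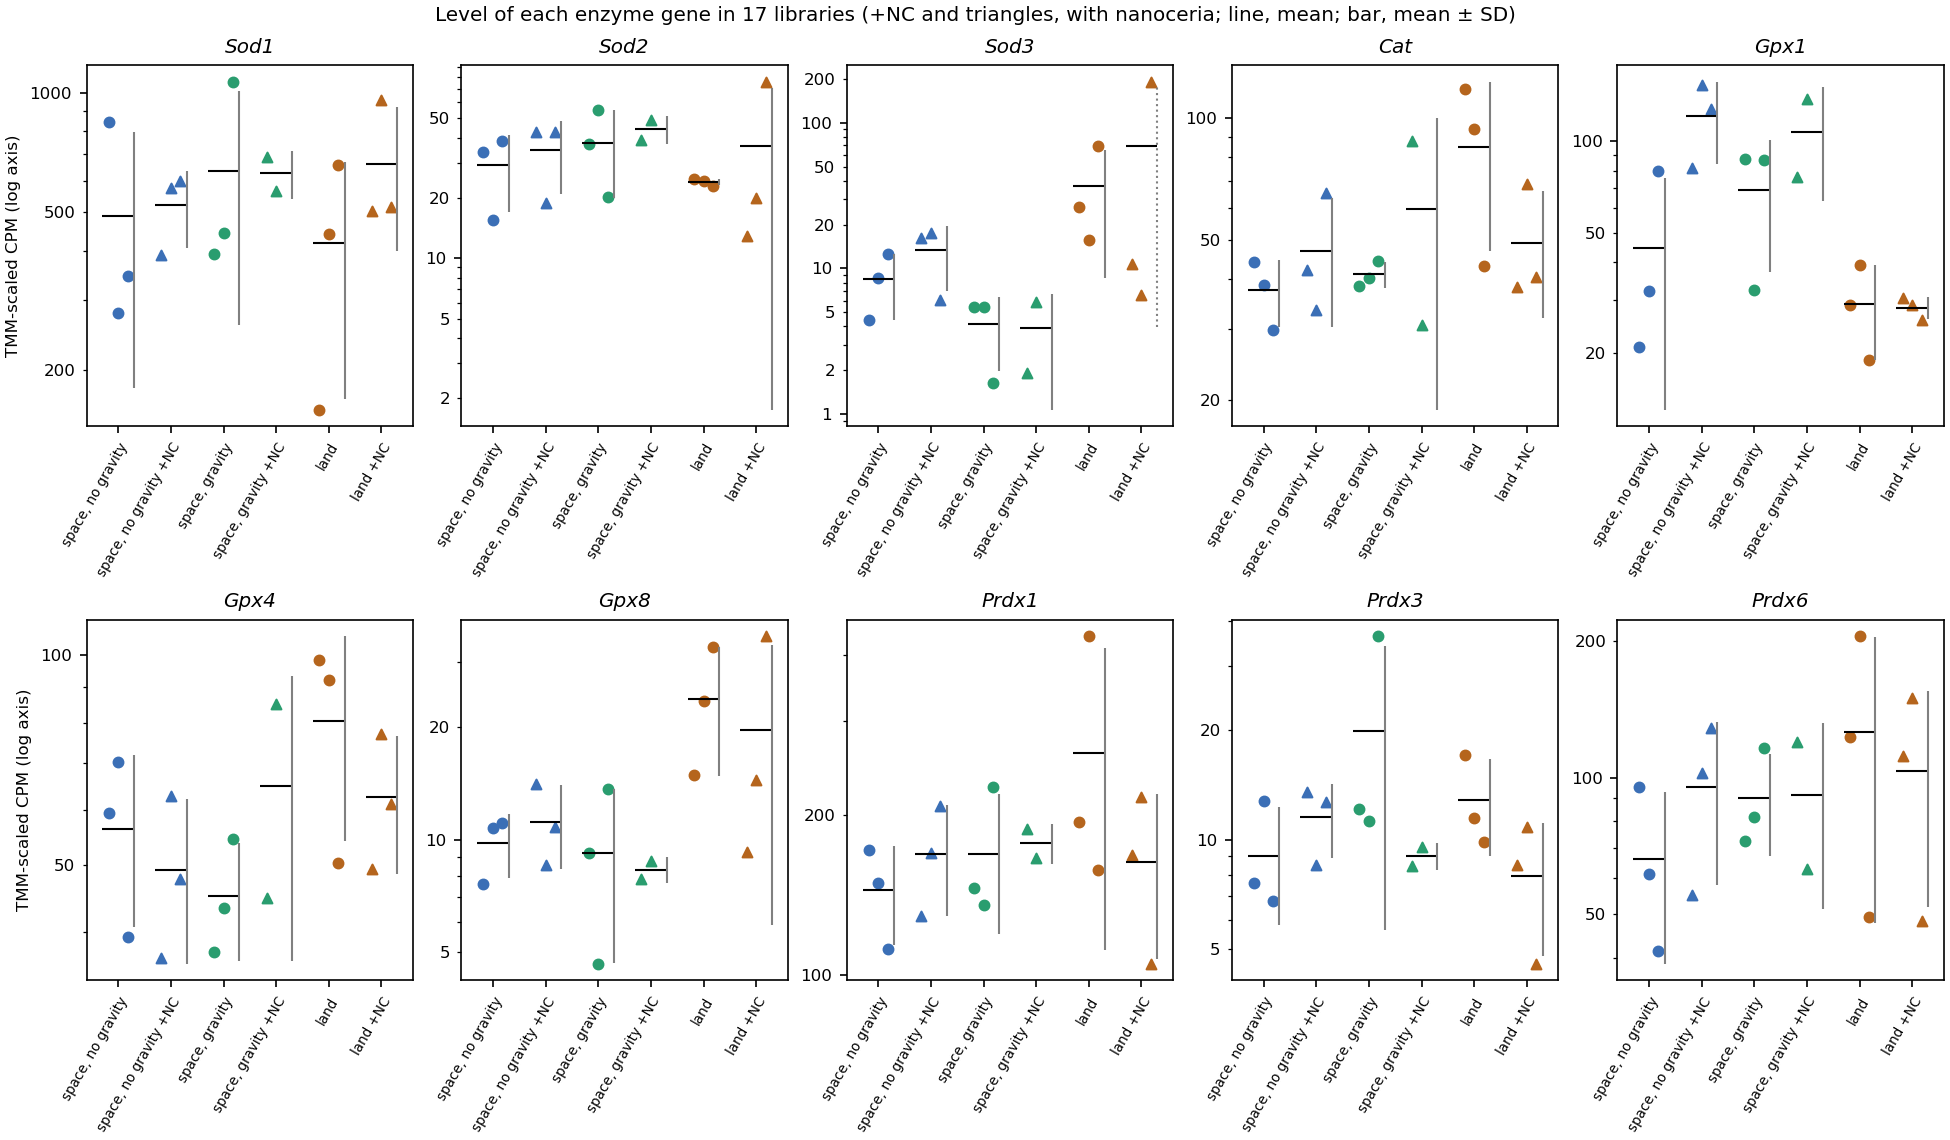
TMM-scaled CPM of each gene (log axes) in the 6 groups, with 1 point per library, the group mean as a line and the mean ± SD as a bar (dotted where mean minus SD is below 0); n = 3, or 2 for space with gravity and nanoceria, where the smallest library is left out. Sod3 in space with gravity (1.65 to 5.90 CPM) lay below all land libraries (6.61 to 192 CPM), and Gpx1 on land (19.1 to 39.1 CPM) lay below all but 1 library of space with gravity.

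**Figure D3:**
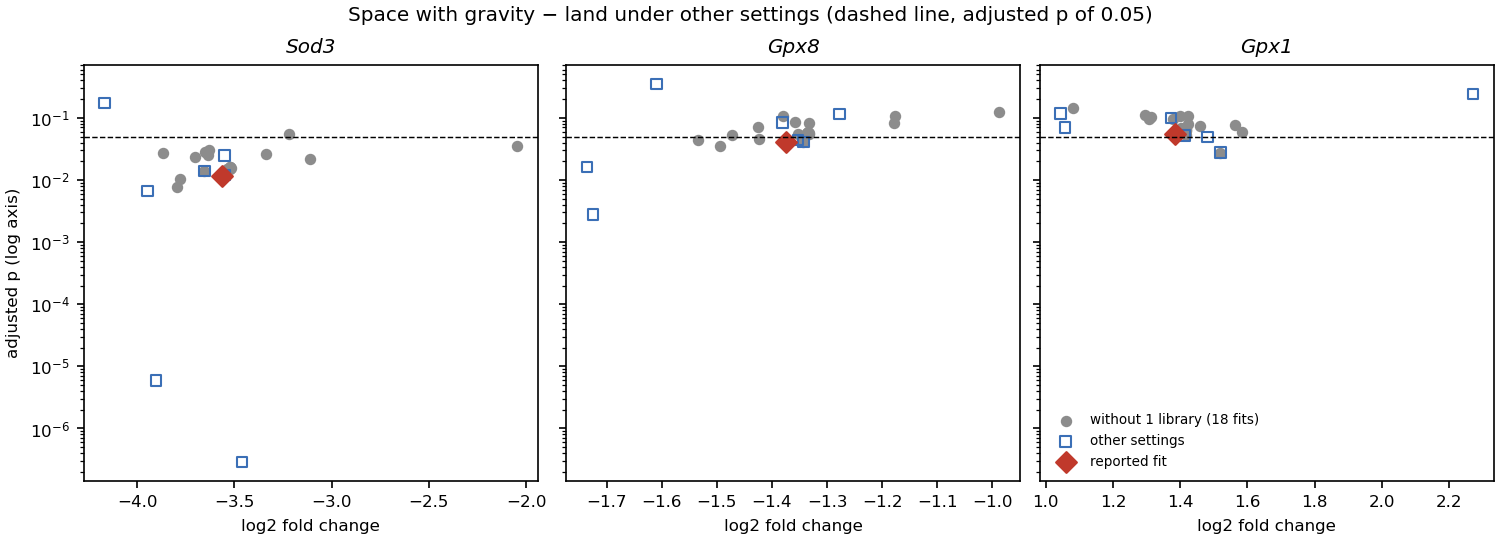
Log2 fold change of space with gravity against land (x) and its adjusted p (y, log axis) for Sod3, Gpx8 and Gpx1 in the reported fit, in the 18 fits without 1 library and in the other settings tried; the dashed line is an adjusted p of 0.05. Sod3 stayed below the line in 17 of the 18 fits, Gpx8 in 4 and Gpx1 in 1.

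The other 7 genes had adjusted p of 0.341 or more in this comparison. Sod1 (ENSMUSG00000022982, chr16:90220742-90226322, plus strand) had a log2 fold change of 0.02, with a 95% confidence interval of -1.09 to 1.13. Sod2 (ENSMUSG00000006818, chr17:13007839-13018119, plus strand) had 0.29 (-0.774 to 1.36). The signs of these 2 values turned with DESeq2's size factors, to -0.30 and -0.10, a scaling that moved the median of all genes to -0.39. Catalase (ENSMUSG00000027187, chr2:103453849-103485160, minus strand) had -0.50 (-1.31 to 0.311). Gpx4 (ENSMUSG00000075706, chr10:80047166-80056439, plus strand) had -0.51 (-1.26 to 0.240). The cytosolic Prdx1 (ENSMUSG00000028691, chr4:116685544-116700822, plus strand) had -0.50 (-1.60 to 0.599), the mitochondrial Prdx3 (ENSMUSG00000024997, chr19:60864051-60874556, minus strand) had 0.42 (-0.403 to 1.25), and Prdx6 (ENSMUSG00000026701, chr1:161240112-161251219, minus strand), which also acts on phospholipids, had -0.51 (-1.52 to 0.489). These intervals allow changes of more than 1 log2 unit in at least 1 direction, so they do not show equal levels.

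Space without gravity against land, again over both nanoceria levels, gave values of the same sign for the 3 genes above, and none passed the adjusted test. The comparison shares its land libraries with the one before, so the pair are not independent. By edgeR, 0 of the 10 genes were called, against 5.25% of all genes tested (2.44% lower). Of the 10, 3 had an unadjusted p under 0.05, against 24.7% of all genes tested. DESeq2 called 2 of the 10, against 13.4% of the genes it tested. Sod3 was at 4.41, 8.56 and 12.5 CPM in the untreated libraries of space without gravity, and at 16.3, 17.4 and 6.09 CPM in the treated ones. Its log2 fold change was -2.26 ± 0.68 (SE; adjusted p = 0.0672), and -0.75 without replicate 3 of land with nanoceria. Gpx8 ran from 7.62 to 14.1 CPM in the 6 libraries of space without gravity, with a log2 fold change of -1.04 ± 0.41 (SE; adjusted p = 0.128). For Gpx1 the levels were 21.1, 32.0 and 79.8 CPM without nanoceria and 81.4, 153 and 127 CPM with it. The Gpx1 log2 fold change was 1.35 ± 0.46 (SE; adjusted p = 0.0874). The 4 highest Gpx1 libraries lay above all of land, and the 2 lowest lay within its range. None of the 10 genes had groups that did not overlap here, against 2.91% of all genes tested.

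Within each nanoceria level the space and land differences rest on 3 libraries a group. In space with gravity and nanoceria, 1 of the 3 is the smallest library, with 23858 counts in all. None of the 10 genes passed the adjusted test in any of the 4 such comparisons. The share of all genes called was 0% for space with gravity without nanoceria, 0.00865% for space with gravity with nanoceria, 0% for space without gravity without nanoceria and 0.0433% for space without gravity with nanoceria. Sod3 had log2 fold changes of -3.13 without and -4.00 with nanoceria for space with gravity, and of -2.12 and -2.39 for space without gravity, with adjusted p from 0.115 to 0.382. DESeq2 called Sod3 in both comparisons of space with gravity, and Cat, Gpx8 and Gpx1 in 1 comparison each. Over all genes DESeq2 called 11.5% for space with gravity without nanoceria and 9.34% with it, and 2.57% for space without gravity without nanoceria and 7.46% with it. For Gpx1 the values were 1.24 and 1.53 in space with gravity. In space without gravity they were 0.61 without nanoceria and 2.09 with it (adjusted p = 0.718 and 0.122).

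**Figure D4:**
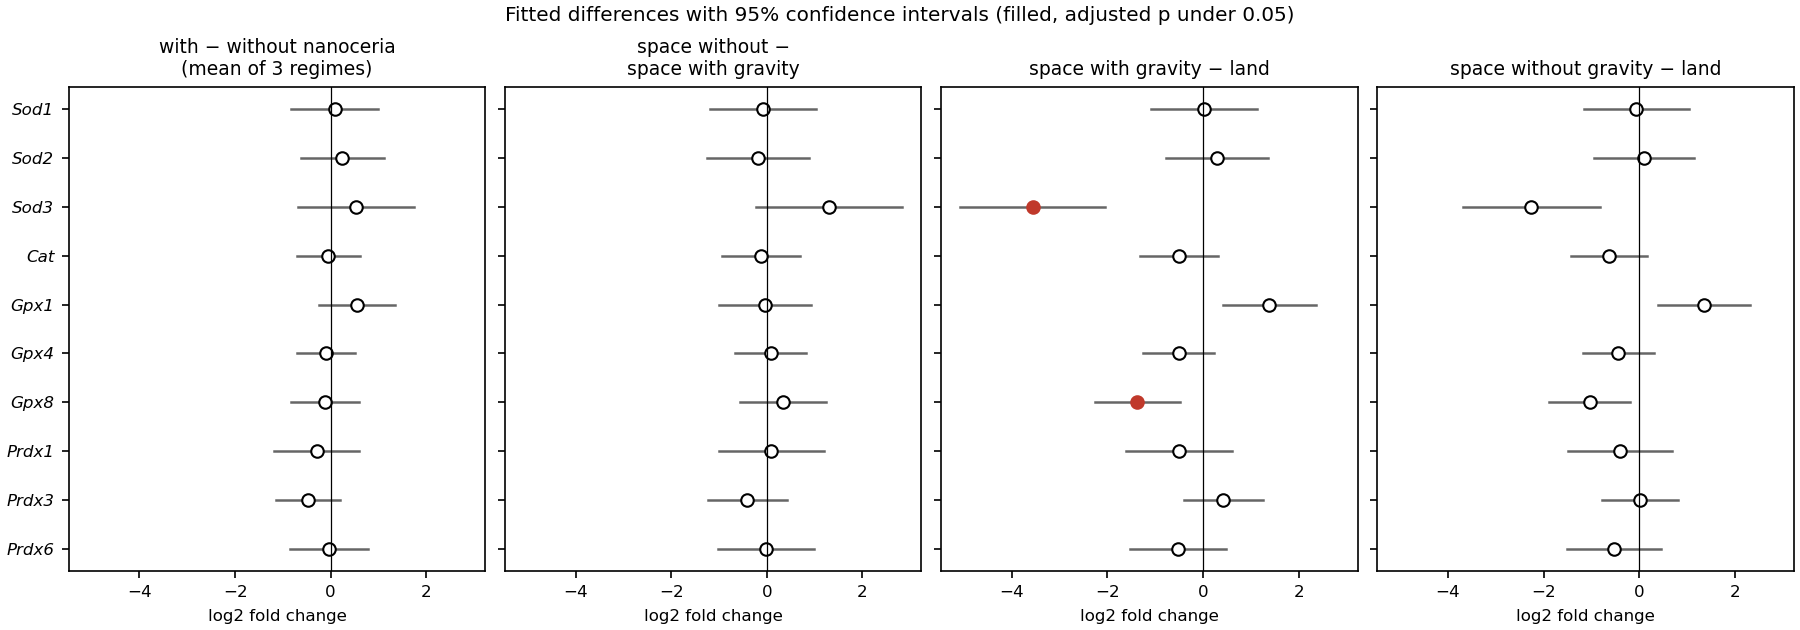
Log2 fold change of each gene with its 95% confidence interval in the 4 averaged comparisons (n = 18 libraries in the fit); filled points passed an adjusted p of 0.05. The calls are Sod3 and Gpx8 in space with gravity against land, and the intervals of the nanoceria comparison all include 0.

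Nanoceria, the agent said to act like these enzymes, gave no call among the 10 genes. Averaged over the 3 regimes, the log2 fold changes ran from -0.47 (Prdx3) to 0.55 (Gpx1), and the smallest adjusted p was 0.807 by edgeR. The median of the 10 genes was -0.04, against -0.03 over all genes, and 0 of the 10 had an unadjusted p under 0.05. DESeq2 called none of the 10 either, and 0.00876% of the genes it tested. Across all genes 0% were called, and 756 of 11558 had an unadjusted p under 0.05. The half-widths of the 95% confidence intervals ran from 0.610 (Gpx4) to 1.22 (Sod3), so a log2 fold change smaller than these widths could not be told from 0 with these libraries. The test of whether the nanoceria difference varied between regimes also called 0% of all genes and none of the 10, with a smallest adjusted p of 0.882.

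Within single regimes, nanoceria again called 0% of genes in space without gravity, 0% in space with gravity and 0% on land. In space without gravity, Gpx1 had a mean of 44.3 ± 31.2 CPM (SD, n = 3) without nanoceria and 121 ± 36.3 CPM (SD, n = 3) with it. The treated libraries were at 81.4, 153 and 127 CPM, and the untreated ones at 21.1, 32.0 and 79.8 CPM. The log2 fold change was 1.44 ± 0.65 (SE; 95% confidence interval 0.0876 to 2.80), with an unadjusted p of 0.0416 and an adjusted p of 1. On land the Gpx1 means were 29.04 ± 10.03 and 28.3 ± 2.37 CPM (SD, n = 3 each), and the log2 fold change was -0.04 (95% confidence interval -1.40 to 1.33). In space with gravity the Gpx1 log2 fold change was 0.25 (-1.14 to 1.63). The adjusted p for a Gpx1 difference between regimes was 0.913. Prdx3 in space with gravity was at 12.1, 11.3 and 36.4 CPM without nanoceria and at 8.47 and 9.56 CPM with it, and its log2 fold change was -1.09 ± 0.57 (SE; adjusted p = 1). The library at 36.4 CPM was the highest of the 17 for Prdx3, and the others ran from 4.56 to 17.1 CPM.

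Withdrawing gravity in space, over both nanoceria levels, called 0% of all genes and none of the 10 by edgeR, with 676 of all genes and 0 of the 10 at an unadjusted p under 0.05. DESeq2 called none of the 10 either, and 0.0964% of the genes it tested. Sod3 had the largest value, a log2 fold change of 1.31 ± 0.73 (SE; 95% confidence interval -0.221 to 2.84; adjusted p = 0.918). Its 6 libraries without gravity (4.41 to 17.4 CPM) and its 5 with gravity (1.65 to 5.90 CPM) overlapped. No gene of the 10 had groups without overlap, against 0.658% of all genes tested. The other 9 log2 fold changes ran from -0.41 (Prdx3) to 0.34 (Gpx8). Without nanoceria (0% of genes called), Prdx3 had a log2 fold change of -1.13 ± 0.53 (SE; unadjusted p = 0.0489, adjusted p = 1), with 7.62, 12.8 and 6.77 CPM in space without gravity. With nanoceria (0% of genes called), the smallest adjusted p of the 10 was 0.971.

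The highest group mean was 17.9 times the lowest for Sod3, 4.26 times for Gpx1 and 1.58 to 2.86 times for the other 8 genes. The highest Sod3 mean was that of land with nanoceria, 69.7 ± 106 CPM (SD, n = 3). Replicate 3 of that group was at 192 CPM and the others at 10.7 and 6.61 CPM, so the Sod3 ratio rests largely on replicate 3. When the 6 groups were ordered by mean level, neighbouring groups overlapped for all 10 genes, which an ordering by mean favours and which says nothing of groups further apart. Gpx1 in space without gravity with nanoceria (81.4 to 153 CPM), for example, did not overlap land with nanoceria (25.7 to 30.4 CPM). These groups were picked as its highest and lowest by mean, and the share of all genes with such a gap was not counted. Over the 17 libraries Sod1 lay between 159 and 1068 CPM, Sod2 between 12.96 and 76.2, Cat between 29.8 and 118, Gpx4 between 36.7 and 98.6, Prdx1 between 105 and 434, Prdx3 between 4.56 and 36.4 and Prdx6 between 41.3 and 205 CPM. The group mean of Sod1 ran from 419 ± 250 CPM (SD, n = 3) on land without nanoceria to 660 ± 261 CPM (SD, n = 3) on land with nanoceria. The mean of Sod2 was lowest on land without nanoceria, 24.0 ± 0.950 CPM (SD, n = 3), and highest in space with gravity and nanoceria, 44.1 ± 7.06 CPM (SD, n = 2). Catalase ran from 37.4 ± 7.15 CPM (SD, n = 3) in untreated cells of space without gravity to 84.9 ± 38.2 CPM (SD, n = 3) on land without nanoceria. Gpx4, Gpx8, Prdx1 and Prdx6 also had their highest means on land without nanoceria. Those means were 80.4 ± 26.3 CPM for Gpx4, 23.8 ± 8.99 CPM for Gpx8, 261 ± 150 CPM for Prdx1 and 126 ± 78.1 CPM for Prdx6 (SD, n = 3 each). The lowest mean was in space without gravity without nanoceria for Prdx1, 144 ± 30.2 CPM, and for Prdx6, 65.9 ± 27.1 CPM (SD, n = 3 each). Gpx4 was lowest in untreated cells of space with gravity, at 45.1 ± 8.69 CPM (SD, n = 3). Prdx3 ran from 7.96 ± 3.17 CPM (SD, n = 3) on land with nanoceria to 19.9 ± 14.3 CPM (SD, n = 3) in untreated cells of space with gravity.

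Ratios within a library do not depend on how libraries are scaled, and 3 of them were taken after the values were seen, so they are descriptions. Per kb of exon, Gpx1 was at 0.351 to 0.738 of Gpx4 in the 6 land libraries and at 0.890 to 2.80 of Gpx4 in the 5 libraries of space with gravity. In space without gravity the ratio ran from 0.424 to 3.19, with 2 libraries without nanoceria in the land range. The 2 selenium-dependent enzymes thus stood in a different order per kb on land than in most space libraries. That order depends on the deposited exon lengths, 1441 bases for Gpx1 and 1724 for Gpx4. It also depends on Gpx4 counts, which a near-identical copy described below makes uncertain. The share of other gene pairs whose ratios separate in this way was not counted. Gpx1 was at 0.409 to 2.31 times Gpx8 on land, 4.49 to 11.1 times in space with gravity and 1.95 to 12.6 times in space without gravity. Sod3 per kb was at 0.00119 to 0.0643 of Sod1 on land and at 0.000267 to 0.00238 in space with gravity, ranges that overlapped.

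**Figure D5:**
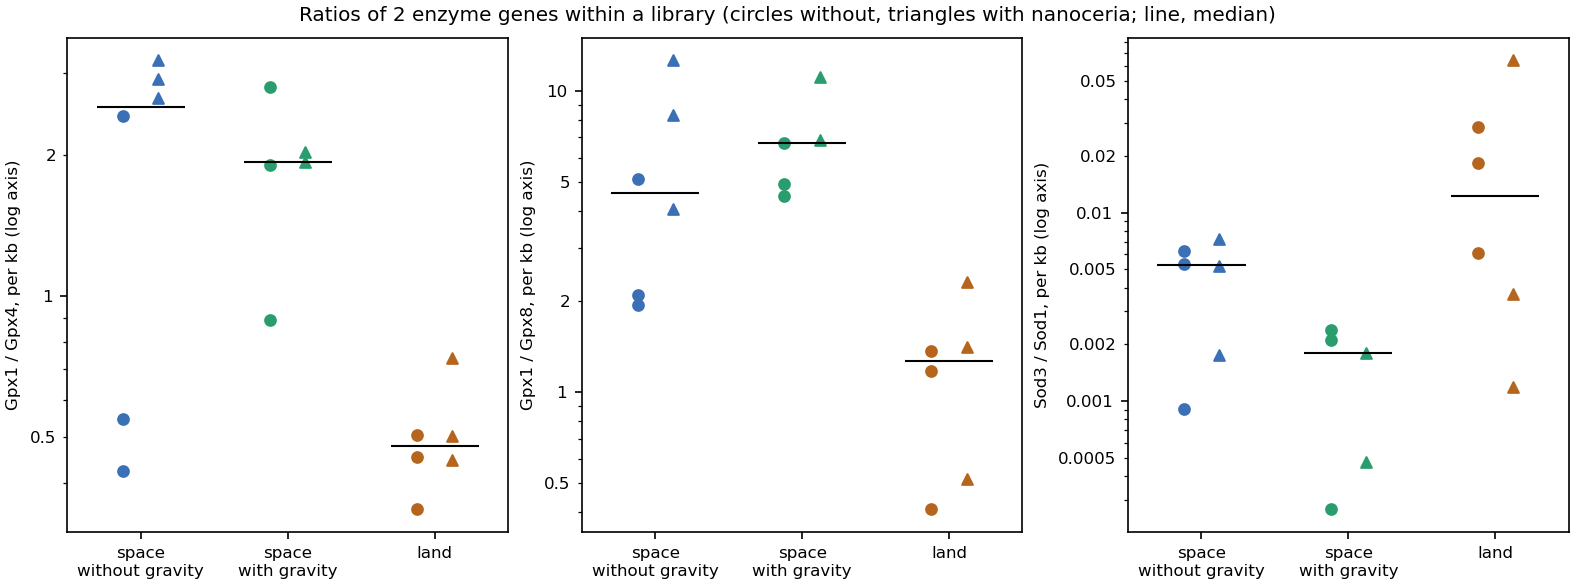
Ratio of the levels per kb of 2 genes within each library (log axes) by regime, with 1 point per library (6, 5 and 6 libraries) and a line at the median. The Gpx1 to Gpx4 ratio was at most 0.738 in the land libraries and at least 0.890 in those of space with gravity, while Sod3 to Sod1 overlapped.

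The genes whose pattern over the 17 libraries was nearest to each of the 10 were found among 6124 genes whose mean log2 CPM was 3 or more, by the root mean square difference of centred log2 CPM. These distances are descriptions, and the libraries they use share depth and the dominant genes' share. The nearest gene to Prdx6 was Prdx1, at 0.327, and Prdx6 was the sixth nearest to Prdx1. For Cat the nearest was Pgd, an enzyme that makes NADPH, at 0.361, and Prdx1 was the sixteenth. Gpx4 was nearest to Pebp1 (0.232), Prdx1 to Esd (0.297), and Gpx1 to Rprd1b (0.518). For Sod3 the nearest was Pcolce, an extracellular protein that promotes collagen processing, at 0.626, and the nearest of the other 9 genes was Gpx8, at 1.17. Sod1 was nearest to Gm8566 (0.368), which holds 298 bases at 98.0% identity to Sod1 and had counts equal to 2.02% of Sod1's. Gpx4 has a similar copy in Gpx4-ps2 (733 bases at 99.7% identity, counts equal to 11.4% of Gpx4's) and Prdx1 in Gm21399 and Gm7204 (1.48% and 1.02% of Prdx1's counts). Reads of these genes and their copies could have been split in counting, or left out of it, so the levels of Sod1, Gpx4 and Prdx1 are uncertain, by an amount that these shares do not bound. The other 7 genes had no annotated copy of at least 250 bases at 90% identity.

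Genes that work around the 10 enzymes were read from 4 lists. Of 31 other peroxide-removing enzymes and electron donors (glutathione and thioredoxin systems, other peroxiredoxins), 25 were tested. In space with gravity against land 21 of the 25 had negative values with a median log2 fold change of -0.40, against -0.04 over all genes. Against 14% of all genes tested that were called (6.74% lower), 1 of the 25 was called. That gene was Prdx2, a cytosolic peroxiredoxin abundant in red cells, which was lower by 1.14 ± 0.35 on the log2 scale (SE; adjusted p = 0.0396). Prdx2 means were 20.4 ± 4.36 and 28.8 ± 11.8 CPM (SD, n = 3 and 2) in untreated and treated cells of space with gravity, and 58.7 ± 22.9 and 43.4 ± 17.9 CPM (SD, n = 3 each) on land. The Prdx2 call held in 4 of the 18 fits that left out 1 library (adjusted p 0.0356 to 0.122). With the dominant genes' share as a covariate the Prdx2 value was -0.93 with an adjusted p of 0.53. In space without gravity against land 19 of the 25 were negative. There 0 were called by edgeR, against 5.25% of all genes tested. An unadjusted p under 0.05 was reached by 2 of the 25, against 24.7% of all genes.

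Of 23 listed producers of superoxide and peroxide, 10 were tested. In space with gravity against land 6 of the 10 values were positive. They ran from -4.09 to 1.39, with a median log2 fold change of 0.12, against -0.04 over all genes. The 2 that were called were lower, against 14% of all genes tested that were called (6.74% lower). In space without gravity against land 5 of the 10 values were positive and 1 was called, lower, against 5.25% of all genes (2.44% lower). Both counts of calls include Ncf4, whose land libraries carried it past the filter on low counts. Xdh, whose oxidase form releases superoxide and hydrogen peroxide while making uric acid, was at 0.797 to 2.84 CPM in the 5 libraries of space with gravity and at 3.21 to 27.9 CPM on land. Its log2 fold change was -2.67 ± 0.58 (SE; adjusted p = 0.0119), and it stayed below 0.05 in all 18 fits that left out 1 library. With the dominant genes' share as a covariate the Xdh value was -3.84 with an adjusted p of 0.128. Ncf4, a subunit of the phagocyte NADPH oxidase, was lower by 4.09 ± 0.91 on the log2 scale in space with gravity (SE; adjusted p = 0.0135) and by 3.45 ± 0.87 in space without gravity (SE; adjusted p = 0.0349). Its counts were 11 or fewer in every space library. Because it passed the filter through its land libraries, its lower values in space are not independent of that filter. On land it was at 0.401 to 2.81 CPM in 5 libraries and at 60.5 CPM in replicate 3 of land with nanoceria, the library with the most Sod3. Without that library its log2 fold changes were -2.07 (adjusted p = 0.0894) and -1.43 (adjusted p = 0.265). With the covariate they were -3.51 (adjusted p = 0.389) and -3.24 (adjusted p = 0.165).

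All 10 genes listed under selenoprotein synthesis were tested. In space with gravity against land 6 of the 10 values were positive, with a median log2 fold change of 0.11, against -0.04 over all genes. There 1 was called, with a higher level, against 14% of all genes tested. The same gene was the only 1 of the 10 called in space without gravity against land, against 5.25% of all genes. Sephs1, a paralogue of the selenophosphate synthetase Sephs2, was at 29.8 to 196 CPM in the 5 libraries of space with gravity, at 20.0 to 217 CPM in space without gravity and at 2.93 to 30.0 CPM on land. Its log2 fold changes were 3.59 ± 0.66 (SE; adjusted p = 0.00813) in space with gravity and 3.30 ± 0.65 (SE; adjusted p = 0.0202) in space without gravity. The first held in all 18 fits that left out 1 library, and the second in 13, with adjusted p of at most 0.0589 in the rest. With the dominant genes' share as a covariate the Sephs1 values were 3.79 (adjusted p = 0.262) and 3.42 (adjusted p = 0.155). Neither call held, and nearly all calls over all genes were lost with this covariate. Of 13 genes of peroxisome import and assembly, which catalase needs to reach its organelle, 12 were tested and 0 were called in any of the 4 averaged comparisons by edgeR. Over all genes edgeR called 14% for space with gravity and 5.25% for space without gravity against land, and 0% in the others. Of the 12, 1 was at an unadjusted p under 0.05 in each comparison. Over all genes that share was 31.9% for space with gravity and 24.7% for space without gravity against land. It was 6.54% for nanoceria and 5.85% for the withdrawal of gravity. Across all 4 lists nanoceria and the withdrawal of gravity gave 0 calls by edgeR, with 4 genes in all under an unadjusted p of 0.05 for nanoceria and 1 for gravity.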

How the data were processed

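The values are raw read counts per gene for 18 polyadenylated RNA libraries, as deposited by the authors with exon coordinates and exon lengths. Per the submitters' processing notes, CASAVA, Trimmomatic 0.36.29, STAR, Subread and featureCounts were used with GRCm38.p6. The annotation release, strand use and treatment of reads that match several places are not given in the sources used here, so counts of near-identical genes are uncertain. The 18 small RNA samples were not analysed here.

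From the counts, edgeR 4.0.16 (R 4.3.3) was run on all 18 libraries: filterByExpr over the 6 groups (11558 genes kept), TMM scaling, a group-means model with 12 residual degrees of freedom, robust quasi-likelihood F-tests (two-sided) and Benjamini-Hochberg adjustment over all genes tested. There were 4 averaged comparisons, 9 pairwise ones and 1 test of the nanoceria by regime interaction. The common biological coefficient of variation was 0.659. Standard errors and intervals are Wald values from the same fit. The script was tested on simulated counts. DESeq2 1.42.0, its size factors, other filters, subsets, a covariate and leaving out each library were alternatives. BLAST+ 2.17.0+ found gene copies, with Biopython 1.88 for the codon alignment. Promoter sequences are from RefSeq.

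The 10 genes and the 4 lists were chosen with earlier results of these data known. All 10 are named whatever their values, and from each list the genes past the threshold, at most 4 per comparison.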

Additional observations from a re-analysis of the deposited data

How the results depend on the processing

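Apart from leaving out single libraries, 326 comparisons with alternative settings were made over 48 log2 fold changes: 280 kept their direction and side of the threshold, 13 lost a call, 6 gained one and 27 changed sign. The changes of sign were all in values that did not pass the threshold. With DESeq2's size factors the log2 fold changes for gravity withdrawn became 0.025 for Gpx1 and 0.099 for Prdx6, those for space with gravity against land -0.30 for Sod1 and -0.10 for Sod2, and those for space without gravity against land -0.24 for Sod2 and -0.21 for Prdx3. DESeq2's own test gave 0.012, 0.087, -0.29, -0.094, -0.24 and -0.21 for the same 6. These size factors moved the median of all genes to -0.39 for space with gravity and -0.28 for space without gravity against land. Without the smallest library the signs turned for nanoceria in Cat (0.051), Gpx4 (0.024) and Prdx6 (0.12), for gravity withdrawn in Gpx4 (-0.030) and Prdx1 (-0.13), and for space without gravity against land in Prdx3 (-0.034). With the dominant genes' share as a covariate they turned for nanoceria in Prdx6 (0.025), for gravity withdrawn in Sod1 (0.0057), Gpx4 (-0.49) and Prdx1 (-0.43), for space with gravity against land in Sod1 (-0.13), Gpx4 (0.48), Prdx1 (0.48) and Prdx6 (0.40), and for space without gravity against land in Prdx1 (0.057). The cause was not tested.

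Of the 10 genes, 2 were called in space with gravity against land. This became 1 with only the libraries compared and 0 with the covariate. In space without gravity against land, where 0 were called, 1 was called with DESeq2's size factors, 2 with DESeq2's test and 1 with no filter on low counts. The share of all genes called there with DESeq2's size factors is not given here. In the pairwise comparisons 5 calls were made by DESeq2's test, 3 with no filter and 1 with only the libraries compared. For the last 2 settings the share of all genes called pairwise was not counted, so these calls cannot be set against it. Over all genes, DESeq2's test called 1 for nanoceria, 11 for gravity withdrawn, 2691 for space with gravity and 1524 for space without gravity against land, and 8 for the interaction. With no filter these counts were 214 for nanoceria, 229 for gravity withdrawn, 1466 for space without gravity against land and 551 for the interaction. With only the libraries compared they were 1072 for space with gravity and 387 for space without gravity against land, and with the covariate 1 and 6.

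Leaving out each of the 18 libraries in turn gave 864 comparisons, of which 63 changed sign, 44 lost a call and 3 gained one. The log2 fold change ranges of results that changed sign were, for nanoceria, -0.074 to 0.31 (Sod1), -0.12 to 0.39 (Sod2), -0.46 to 0.80 (Sod3), -0.34 to 0.054 (Cat), -0.28 to 0.024 (Gpx4), -0.35 to 0.015 (Gpx8) and -0.27 to 0.16 (Prdx6). For gravity withdrawn they were -0.42 to 0.21 (Sod1), -0.35 to 0.0065 (Sod2), -0.28 to 0.30 (Cat), -0.43 to 0.29 (Gpx1), -0.036 to 0.35 (Gpx4), -0.13 to 0.31 (Prdx1) and -0.21 to 0.34 (Prdx6). For space with gravity against land the range was -0.25 to 0.30 (Sod1), and for space without gravity against land -0.37 to 0.20 (Sod1), -0.049 to 0.70 (Sod2) and -0.11 to 0.18 (Prdx3). Of the 10 genes, 0 to 3 were called in space with gravity, 0 to 1 in space without gravity against land and 0 to 1 in the pairwise comparisons. For these pairwise fits the share of all genes called was not counted. Over all genes 459 to 1614 were called in space with gravity and 82 to 713 in space without gravity, each averaged and against land. The lowest of these counts were reached without replicate 1 of space with gravity and nanoceria, the fit in which 0 of the 10 genes were called, and without replicate 1 of land without nanoceria.

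No paired analysis was possible because the labels number no replicates and the numbers used here follow accession order only. Low counts limit Sod3 (10 counts in its lowest deeper library), Gpx8 (23) and Prdx3 (14). The smallest library, at 23858 counts in all, held 0 to 6 counts of each of the 10 genes.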
